A study of Rattus norvegicus with 8 samples.

Results

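The extracellular matrix and mesenchymal cell genes described here are 39 genes listed by name, a list drawn up with earlier results of these data known. They encode fibrillar and other interstitial collagens, components of basement membranes, matrix glycoproteins and proteoglycans, enzymes that cross-link or degrade matrix with their inhibitors, and proteins of contractile and other mesenchymal cells. Of the 39, 30 had a probe matched to the gene symbol through its RefSeq accession. Of these, 27 were measured, that is, bright enough over background in every rat of 1 group or both. They were set among 19865 genes and unnamed transcripts tested, 9925 of them with a symbol. Whether an unnamed probe measures any of the other 9 members was not examined. The tissue was the right kidney of F344/NSlc rats, all male and 10 weeks old, taken from 4 rats after a sham operation and from 4 after removal of the opposite kidney (unilateral nephrectomy), with 1 single-colour Agilent array per rat. The series text places sampling 2 days after the operation, while the source labels give day 1 for sham and day 2 for nephrectomized rats, so time and operation cannot be told apart where the labels hold. Neither group received any other treatment that the labels name. The p-values set a difference between the groups against the spread between these 8 rats.

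As background, the renal interstitium is a thin space between tubules in which fibroblasts and pericytes, marked by the platelet-derived growth factor receptors, deposit collagens of types I, III, V and VI, and in scarring these cells turn into contractile myofibroblasts that deposit more. Each tubule and capillary rests on a basement membrane of type IV collagen, laminin, nidogen and perlecan. In the glomerulus this membrane is the filter itself and is built from special chains, among them the collagen chain of Col4a4 and the laminin chain of Lamb2. Loss of a kidney makes its partner grow. The comparison of the groups addresses whether mRNA of matrix and mesenchymal genes changes early in that growth.

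Levels below are log2 intensities with the 75th percentile of the array set to 0, so that each value is relative to the other mRNA of the same kidney. A gene was called where limma gave an adjusted p under 0.05 over all 19865 genes (Benjamini-Hochberg). Between 54.8% and 65.5% of the probes were well above background on an array, no probe of a measured member was saturated, and sham rat 1 had the lowest share. Each of 2 slides held 2 rats of each group, and for some genes the differences within each slide are also given. Markers of kidney cells were present: 10 of 10 proximal tubule, 10 of 10 collecting duct and 10 of 10 podocyte markers were measured. Of the markers of fibroblasts, pericytes and smooth muscle, Pdgfra, Pdgfrb, Myh11, Des and Dcn were measured, whereas Lum was well above background on 0 of 8 arrays. In whole kidney RNA, fewer cells of a type and less RNA per cell cannot be told apart.

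No member was called. Limma gave 0 of the 27 measured members an adjusted p under 0.05, against a background of 3.59% of all genes tested (2.57% higher, 1.02% lower), and the smallest adjusted p was 0.188, for Lamb2. A count of 0 among 27 genes lies close to that background. Before adjustment, 5 members had p under 0.05 (Col1a1, Col15a1 and Mmp14 higher, Col4a4 and Lamb2 lower), a share of 18.5% against 17.7% of all genes. The groups overlapped in each of the 27 members, so that 0% were free of overlap against 12.7% of all genes. The members' median log2 fold change was 0.03, with 16 positive and 11 negative, beside a median of -0.00041 and a positive share of 49.9% over all genes.

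The values also bound what could have gone unseen. The members' log2 fold changes ran from -0.42 to 0.30, with standard errors from 0.06 to 0.27 and a median of 0.11, close to the median of 0.098 over all genes. The 95% interval of all 27 members excluded a 2-fold change in either direction, as did that of 94.4% of all genes. For 23 of the 27 (85.2%, against 82.4% of all genes) it also excluded a 1.5-fold change, and the exceptions were Lamb2, Dcn, Tnc and Timp3. The smallest change called among all genes was 0.24 on the log2 scale.

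**Figure D1:**
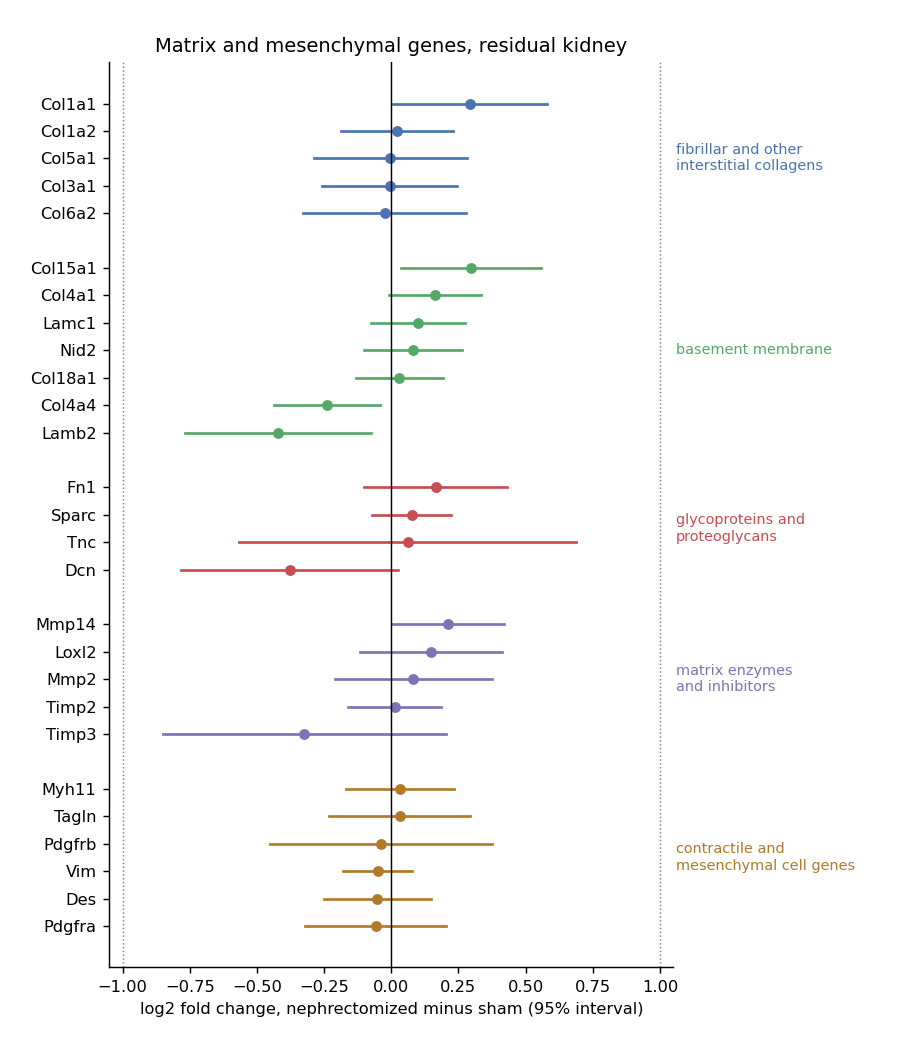
Log2 fold change of each measured member (point) with its 95% interval from limma (line), grouped by role, 4 nephrectomized against 4 sham rats. Dotted lines mark 2-fold changes, and every interval lies between them. The intervals of Col1a1, Col15a1 and Mmp14 lie above 0 and those of Col4a4 and Lamb2 below it, none with an adjusted p under 0.05.

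Among the interstitial collagens, which form the fibres and microfibrils of connective tissue, Col1a1 had the largest difference and the others had log2 fold changes between -0.02 and 0.02. Of 7 members, 5 were measured, none was called, and their median log2 fold change was -0.0037. Col5a2 and Col6a1 had no matched probe and were not analysed here. Col1a1, the alpha-1 chain of type I collagen, read 3.13, 2.61, 3.05 and 2.99 in sham rats 1 to 4 and 3.07, 3.17, 3.41 and 3.31 in nephrectomized rats 1 to 4. Sham rat 2 was low, and of the other sham rats only rat 1 exceeded a nephrectomized rat. The log2 fold change was 0.29 (SE 0.13, 95% interval 0.01 to 0.58, adjusted p = 0.273). Taken within slides 1 and 2 it was 0.24 and 0.34, and a second probe gave 0.24.

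Col1a2 encodes the partner chain of the same fibre. It read 4.39, 4.24, 4.53 and 4.45 in sham and 4.27, 4.41, 4.61 and 4.40 in nephrectomized rats. The groups covered the same range, with a log2 fold change of 0.02 (SE 0.09, 95% interval -0.19 to 0.23, adjusted p = 0.938), and a second probe gave 0.03. Col3a1, the chain of type III collagen fibres, had a log2 fold change of -0.01 (95% interval -0.26 to 0.25) and Col5a1, a type V chain that starts fibres, -0.0037 (95% interval -0.29 to 0.28). Col6a2, a chain of the type VI microfibrils that surround cells, read -0.63, -1.09, -0.95 and -0.77 in sham and -1.05, -0.94, -0.57 and -0.97 in nephrectomized rats. Its highest values came from sham rat 1 and nephrectomized rat 3, and its log2 fold change of -0.02 (SE 0.13, adjusted p = 0.949) was -0.13 on slide 1 and 0.09 on slide 2.

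The interstitial collagens varied more between rats than between groups. As the mean of the 5 genes relative to the sham mean, sham rats read 0.13, -0.27, 0.08 and 0.05 and nephrectomized rats -0.07, 0.02, 0.25 and 0.02. Sham rat 2 was the lowest and nephrectomized rat 3 the highest, and the SD within groups (0.18 for sham, 0.14 for nephrectomized) exceeded the difference of 0.06. Sham rat 2 was the lowest of the 8 rats for each of the 5 collagens. Without it the log2 fold change of Col1a1 was 0.18 and the adjusted p 0.452.

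**Figure D2:**
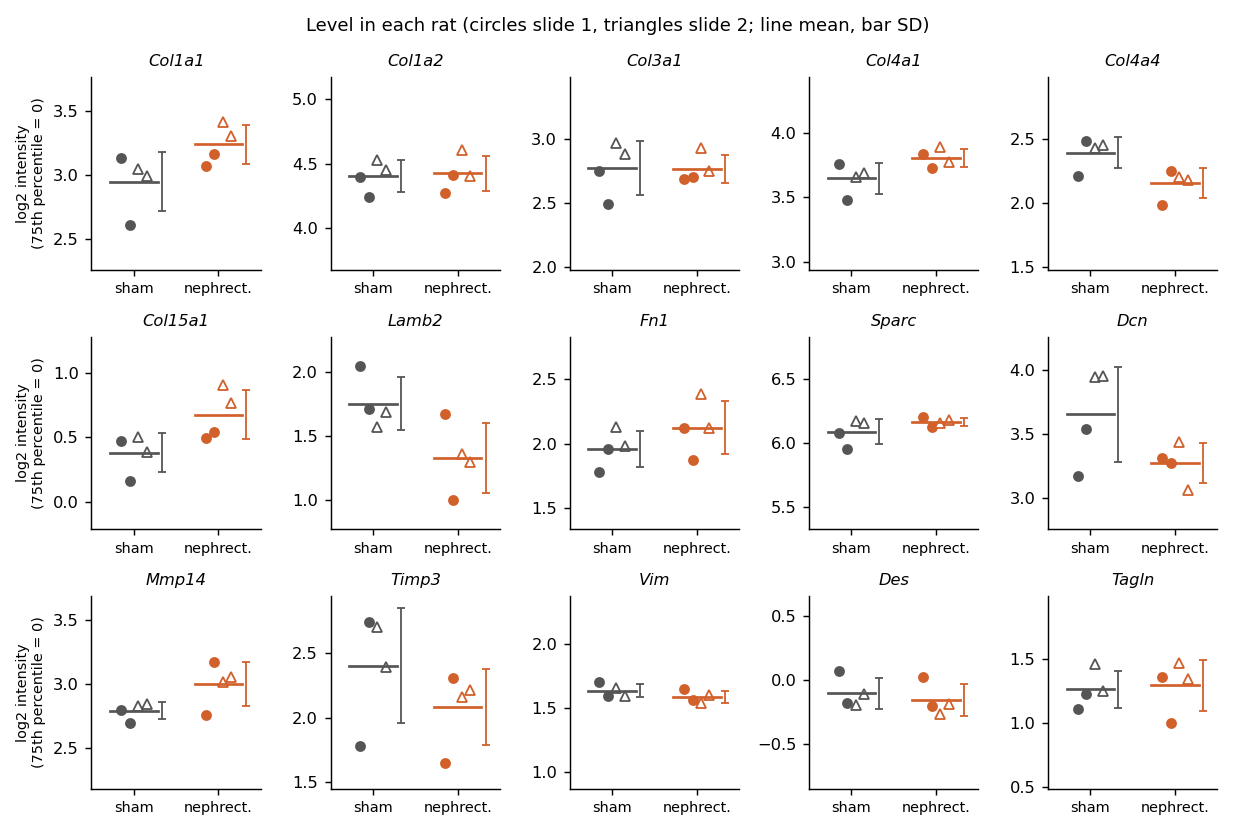
Level of 15 members in each rat, as log2 intensity with the array's 75th percentile at 0 and the same height of scale in every panel. Filled circles are rats on slide 1 and open triangles rats on slide 2, the horizontal line is the group mean and the bar its SD (n = 4). The groups overlap in all panels. In Col4a4, Lamb2 and Col15a1 1 rat reaches into the range of the other group, and Vim shows the least spread among sham rats.

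Basement membrane genes showed the widest range of differences, in both directions, and none passed. Of 12 members 7 were measured, with a median log2 fold change of 0.08, 5 positive and 2 negative. Col4a2, Col4a3, Lamb1, Nid1 and Hspg2 had no matched probe and were not analysed here. Lamb2, the laminin beta-2 chain of the glomerular filter and of vessel walls, read 2.05, 1.71, 1.57 and 1.69 in sham and 1.67, 1.00, 1.36 and 1.30 in nephrectomized rats. Only nephrectomized rat 1 reached into the sham range. The log2 fold change was -0.42 (SE 0.15, 95% interval -0.77 to -0.08, adjusted p = 0.188), or -0.54 and -0.30 within slides 1 and 2.

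Col4a4, a chain of the type IV collagen network of the mature glomerular membrane, read 2.21, 2.48, 2.43 and 2.45 in sham and 1.98, 2.25, 2.21 and 2.18 in nephrectomized rats. Sham rat 1 was the only sham rat within the nephrectomized range. The log2 fold change was -0.24 (SE 0.09, 95% interval -0.44 to -0.04, adjusted p = 0.19), or -0.23 and -0.25 within slides 1 and 2. Col4a4 was called where arrays were weighted by their quality (-0.25, adjusted p = 0.0395, with 12.7% of all genes called), and in none of the other settings tried. The podocyte, which makes this network, was represented by 10 markers, 0 of them called, with a median log2 fold change of 0.03. Among them Nphs1 read -3.33 in sham rat 3 against 1.38 to 1.68 in the other sham rats, so no mean over the list is given, and the part of these markers in the values of Col4a4 and Lamb2 was not tested.

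Col15a1, whose collagen links basement membranes to the interstitium, read 0.47, 0.16, 0.50 and 0.38 in sham and 0.49, 0.54, 0.90 and 0.77 in nephrectomized rats. Nephrectomized rat 1 lay just below sham rat 3, and the other nephrectomized rats were above all sham rats. The log2 fold change was 0.30 (SE 0.11, 95% interval 0.04 to 0.56, adjusted p = 0.221), or 0.20 and 0.39 within slides 1 and 2. The 11 measured endothelial markers, of cells that also make this collagen, had a median of -0.07, with 5 positive and 6 negative. Of these markers 1 was called (9.09%, against 3.59% of all genes). It was Vwf, lower by limma (adjusted p = 0.0467), which was not called with slide as a block (adjusted p = 0.06). Col18a1, the source of endostatin, had a log2 fold change of 0.03 (95% interval -0.13 to 0.19), Lamc1, the gamma-1 chain shared by most laminins, 0.10 (-0.07 to 0.27), and Nid2, which ties laminin to collagen IV, 0.08 (-0.10 to 0.26).

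Col4a1 encodes a chain of the type IV network found in nearly all basement membranes. It read 3.76, 3.48, 3.66 and 3.69 in sham and 3.84, 3.73, 3.89 and 3.78 in nephrectomized rats, a log2 fold change of 0.16 (SE 0.08, 95% interval -0.01 to 0.33, adjusted p = 0.312). Its second probe, also well above background on all 8 arrays, gave -0.07, so that the direction depends on the probe. Col4a4 and Col4a1 belong to networks of different places. Their ratio within each array was formed after the values had been seen, because they differed in opposite directions. The log2 ratio of Col4a4 to Col4a1 differed by -0.40 after nephrectomy, and by -0.40 within each slide. A two-sided exact permutation test gave p = 0.0571, and 0.0857 after Benjamini-Hochberg adjustment over 2 such ratios, where the smallest p that 4 against 4 rats allow is 0.0286. With the second probe of Col4a1 the difference was -0.17 (exact permutation p = 0.114). The other ratio, Lamb2 to Lamc1, differed by -0.52, with an exact permutation p = 0.0857. Neither ratio passed. Since both pairs were picked for their opposite directions, these p-values do not account for the choice. The adjustment over 2 ratios also leaves out all other pairs of members. The values are therefore a description and not a test.

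Col4a1 and its partner Col4a2 are read in opposite directions from neighbouring starts, and the stretch between them is shown because it serves a pair of members of which 1 could be measured. In the RefSeq promoter table of the GRCr8 build, which held 24 of the 39 members, these 76 bases lie at chr16:84885521-84885596 and are given on the + strand, which Col4a1 follows. Capitals mark GGGCGG, searched on both strands as the only motif, found here on the - strand, as CCGCCC, 16 bases before the start of Col4a1.
Col4a1 and Col4a2: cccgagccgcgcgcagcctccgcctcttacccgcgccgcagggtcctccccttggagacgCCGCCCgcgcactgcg
Of the 33469 promoters in that table, 18.1% held the motif in the 76 bases before the start.

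Among matrix glycoproteins and proteoglycans, 4 of 6 members were measured and none was called. Their median log2 fold change of 0.07 was 0.14 within slide 1 and -0.21 within slide 2. Dcn, the small proteoglycan decorin that coats collagen fibres, read 3.17, 3.54, 3.94 and 3.95 in sham and 3.32, 3.28, 3.44 and 3.06 in nephrectomized rats. Sham rats 3 and 4 were high, while sham rat 1 lay below all nephrectomized rats but rat 4. The log2 fold change was -0.38 (SE 0.18, 95% interval -0.78 to 0.03, adjusted p = 0.316), and the slides diverged, at -0.06 within slide 1 and -0.70 within slide 2. Without sham rat 1 it was -0.54 (adjusted p = 0.0762), and with array weights -0.60 (adjusted p = 0.0311). With each rat left out in turn, the adjusted p of Dcn ran from 0.0762 to 0.558.

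Of 6 fat cell markers, 4 were measured (Adipoq, Cfd, Cidec and Fabp4) and 0 called. Their median log2 fold change was -0.33, and Lep was well above background on 0 of 8 arrays. Their mean relative to sham ran from -0.36 to 0.46 in sham and from -0.58 to -0.01 in nephrectomized rats, and its part in the value of Dcn was not tested. Fn1, which encodes fibronectin, the adhesive protein laid down early in scars, read 1.78, 1.96, 2.13 and 1.98 in sham and 2.12, 1.87, 2.38 and 2.12 in nephrectomized rats. The groups overlapped widely, with a log2 fold change of 0.16 (SE 0.12, 95% interval -0.10 to 0.43, adjusted p = 0.517), and 0.19 by a second probe. It ranged from 0.08 without nephrectomized rat 3 to 0.25 without nephrectomized rat 2.

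Sparc, a collagen-binding protein of matrix turnover, read 6.08, 5.96, 6.17 and 6.16 in sham and 6.20, 6.13, 6.16 and 6.18 in nephrectomized rats. It had among the narrowest intervals, -0.07 to 0.22 around a log2 fold change of 0.08 (adjusted p = 0.606). Tnc, which encodes tenascin-C, a protein of remodelling tissue, stood clear of background in 3 sham rats and in all 4 nephrectomized rats. Its log2 fold change of 0.06 (SE 0.27) was 0.55 on slide 1 and -0.43 on slide 2. Postn, which encodes periostin, a protein of fibrotic matrix, was well above background in 1 of 4 rats of each group, and Lum, the proteoglycan lumican, in 0 of 4 of each, so neither was tested.

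Genes of matrix enzymes and their inhibitors gave 5 measured members of 7, with 0 called and a median log2 fold change of 0.08. Mmp14, a membrane-anchored protease that cleaves collagen and activates Mmp2, read 2.80, 2.70, 2.83 and 2.84 in sham and 2.76, 3.17, 3.02 and 3.06 in nephrectomized rats. Nephrectomized rat 1 lay among the sham rats and the other 3 above them. The log2 fold change was 0.21 (SE 0.09, adjusted p = 0.278), or 0.22 and 0.20 within slides 1 and 2. Without nephrectomized rat 1 it was 0.29 (adjusted p = 0.0833), and with each rat left out in turn the adjusted p ran from 0.0833 to 0.495.

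Timp3, an inhibitor of matrix proteases that is bound to the matrix, read 1.78, 2.75, 2.70 and 2.39 in sham and 1.64, 2.31, 2.16 and 2.21 in nephrectomized rats. Rat 1 of each group was the lowest of its group, and the log2 fold change of -0.32 (SE 0.23, 95% interval -0.85 to 0.20, adjusted p = 0.522) moved to -0.53 without sham rat 1. With each rat left out in turn, the adjusted p of Timp3 ran from 0.145 to 0.759. Loxl2, which cross-links collagen, read 1.42, 1.25, 1.55 and 1.23 in sham and 1.23, 1.59, 1.68 and 1.53 in nephrectomized rats, with a log2 fold change of 0.15 (SE 0.12, adjusted p = 0.566) that ranged from 0.09 without nephrectomized rat 3 to 0.24 without nephrectomized rat 1. The gelatinase gene Mmp2 had a log2 fold change of 0.08 (95% interval -0.21 to 0.37) and Timp2, which both inhibits and helps activate that enzyme, 0.01 (-0.16 to 0.18). Mmp9, the other gelatinase, was well above background in 3 of 4 rats of each group, short of the filter, and read -4.72, -4.41, -4.50 and -4.08 in sham and -3.65, -4.29, -4.20 and -4.05 in nephrectomized rats. Lox had no matched probe and was not analysed here.

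Contractile and mesenchymal cell genes had the narrowest range of differences of the 5 groups of members. All 6 measured members of 7 had a log2 fold change between -0.06 and 0.03, with a median of -0.04 and 0 called, and the 95% interval of each excluded a 1.5-fold change. Vim, which encodes the intermediate filament vimentin of mesenchymal cells, read 1.70, 1.59, 1.65 and 1.59 in sham and 1.64, 1.56, 1.54 and 1.60 in nephrectomized rats. Its log2 fold change was -0.05 (SE 0.06, 95% interval -0.18 to 0.08, adjusted p = 0.704), with an SD of 0.05 in each group. Des, which encodes the filament desmin of muscle, pericytes and injured podocytes, read 0.07, -0.17, -0.19 and -0.11 in sham and 0.03, -0.20, -0.26 and -0.18 in nephrectomized rats. Rat 1 was the highest in each group, and the log2 fold change was -0.05 (SE 0.09, adjusted p = 0.819).

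Pdgfra, a growth factor receptor of fibroblasts, read 2.22, 2.27, 2.47 and 2.53 in sham and 2.36, 2.17, 2.57 and 2.14 in nephrectomized rats. Low and high values occurred in both groups, and the log2 fold change was -0.06 (SE 0.12, 95% interval -0.32 to 0.20, adjusted p = 0.847). Pdgfrb, its counterpart on pericytes and mesangial cells, had a log2 fold change of -0.04 and, at an SD of 0.36 among sham rats, the widest interval of these genes (-0.45 to 0.38). Myh11, the smooth muscle myosin heavy chain, read -1.19, -1.10, -0.90 and -1.20 in sham and -1.08, -1.03, -1.20 and -0.94 in nephrectomized rats, with a log2 fold change of 0.03 (SE 0.09, adjusted p = 0.89). Tagln, the smooth muscle protein transgelin, had 0.03 (95% interval -0.23 to 0.29). Acta2 had no matched probe and was not analysed here.

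**Figure D3:**
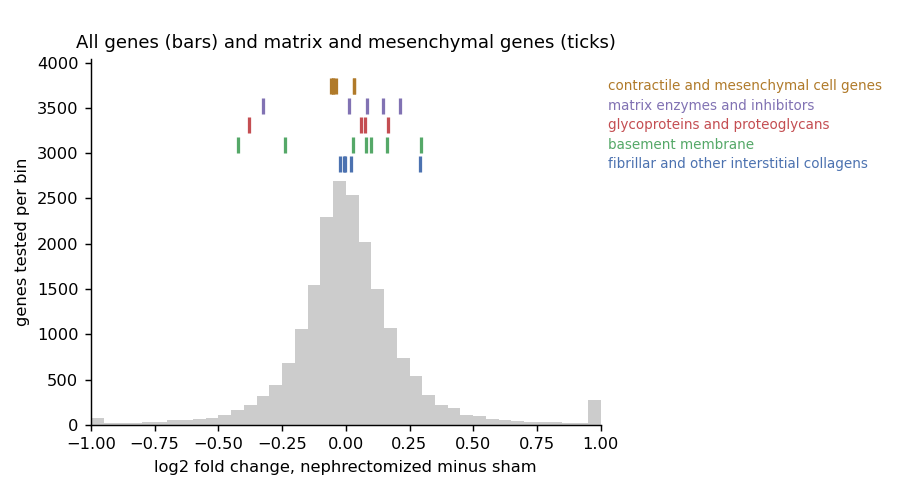
Log2 fold changes of all genes tested (bars, bins of 0.05; the outermost bars also hold the 313 genes beyond 1) and of the 27 measured members (ticks, 1 row per group of members). Contractile genes lie between -0.06 and 0.03, and basement membrane genes spread from -0.42 to 0.30.

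The slides and probes gave a check of how well small differences repeated. Of the 27 members, 19 (70.4%) had the same sign on each slide, against 68.4% of all genes. The others were Col3a1 (0.08 within slide 1, -0.09 within slide 2), Col18a1 (-0.05, 0.11), Timp2 (-0.01, 0.04), Myh11 (0.08, -0.02), Pdgfra (0.03, -0.14), Pdgfrb (0.12, -0.19), and Col6a2 and Tnc, given above. Of 8 measured members with a second probe above the filter, 6 had probes of the same sign, and the 2 log2 fold changes differed by at most 0.05 except for Col4a1, where they differed by 0.23. Averaged over all 27 members relative to the sham mean, sham rats read -0.0023, -0.13, 0.07 and 0.06 and nephrectomized rats -0.02, -0.05, 0.11 and -0.0096. The groups overlapped, with a difference of 0.0075 against SDs of 0.09 and 0.07.

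A wider set of 163 matrix and mesenchymal genes in 8 lists was examined beside the members, of which 105 were measured. Limma called 3 of them (2.86%, against 3.59% of all genes), 2 lower and 1 higher, and 11 (10.5%) were free of overlap against 12.7% of all genes. The lists' median log2 fold changes lay between -0.05, for other matrix proteins, and 0.11, for other fibroblast, pericyte and mesangial genes. The 3 called genes encode secreted proteins of the matrix: Mmp11 and Prelp fell and Thbs2 rose.

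Mmp11, which encodes stromelysin-3, a secreted protease of stromal cells, read -0.06, -0.24, 0.05 and -0.08 in sham and -0.59, -0.57, -0.61 and -0.50 in nephrectomized rats. Every nephrectomized rat lay below every sham rat, and Mmp11 fell by 0.49 on the log2 scale (SE 0.07, 95% interval -0.65 to -0.32, adjusted p = 0.00978), or -0.43 and -0.54 within slides 1 and 2. It kept its call without any single rat (adjusted p 0.00982 to 0.0345), and lost it with the replicate number as a block (0.0577) and without the filter on dim probes (0.0554). It was the only one of the 3 with an entry in the RefSeq promoter table, and its 250 bases before the start are shown as those of the called gene with the smallest p, at chr20:12730034-12730283 on the + strand of GRCr8. Capitals mark GGGCGG, again searched on both strands, and found 85, 53 and 32 bases before the start, each on the + strand.
Mmp11: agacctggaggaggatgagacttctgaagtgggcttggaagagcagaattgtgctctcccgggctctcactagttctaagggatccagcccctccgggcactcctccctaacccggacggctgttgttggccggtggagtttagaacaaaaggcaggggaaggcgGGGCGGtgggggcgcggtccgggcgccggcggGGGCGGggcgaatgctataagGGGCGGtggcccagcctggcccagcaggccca
Of all 33469 promoters, 30.5% held the motif in these 250 bases, so the match describes the sequence and no more.

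Thbs2, which encodes thrombospondin-2, a secreted inhibitor of vessel growth, read -1.68, -1.90, -1.84 and -1.74 in sham and -1.16, -1.27, -1.49 and -1.19 in nephrectomized rats. All nephrectomized rats were above all sham rats, and Thbs2 rose by 0.51 on the log2 scale, or 1.43-fold (SE 0.09, adjusted p = 0.0186), and a second probe gave 0.46. Leaving out sham rat 2, sham rat 3, nephrectomized rat 2 or nephrectomized rat 4 ended the call (adjusted p 0.0545 to 0.0685), as did normexp (0.38, adjusted p = 0.064). Prelp, a proteoglycan that anchors basement membranes to connective tissue, read -1.27, -1.40, -1.24 and -1.27 in sham and -1.78, -1.79, -1.49 and -1.79 in nephrectomized rats. Nephrectomized rat 3 was nearest to the sham rats and still below them, and Prelp fell by 0.42 (SE 0.08, adjusted p = 0.0353). It lost its call without any rat but nephrectomized rat 3 (adjusted p 0.0616 to 0.118), and with normexp fell by 0.27 (adjusted p = 0.0582).

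In the other 6 lists no gene was called, and the gene with the smallest p of each is given. P4ha1, a prolyl hydroxylase that stabilises collagen, had a log2 fold change of -0.32 (SE 0.09, adjusted p = 0.0955, and 0.0493 with slide as a block), 1 of 15 measured genes of collagen processing. Sdc1, the cell surface proteoglycan syndecan-1, had 0.40 (SE 0.10, adjusted p = 0.0833, and 0.0229 with slide as a block), 1 of 15 integrin and matrix receptors. Pdgfb, a ligand of Pdgfrb, passed the filter through the nephrectomized rats alone, with 1 sham rat near background. It read -4.67, -4.01, -4.37 and -4.26 in sham and -3.53, -3.85, -4.09 and -3.28 in nephrectomized rats, and the groups overlapped. Col5a3, a type V collagen chain, had 0.51 (SE 0.18, adjusted p = 0.177), and without sham rat 1, which lay within the range of the nephrectomized rats, 0.69 (adjusted p = 0.00913). With each rat left out in turn, the adjusted p of Col5a3 ran from 0.00913 to 0.348. Lama5, the laminin alpha-5 chain of mature basement membranes, had 0.18 (SE 0.10, adjusted p = 0.418) and Ldb3, a muscle Z-disc protein, 0.22 (SE 0.08, adjusted p = 0.193). The groups did not overlap in P4ha1, Sdc1 and Ldb3. Genes picked for a small p tend to be free of overlap. Among the measured genes of the wider set 10.5% were so, against 12.7% of all genes.

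**Figure D4:**
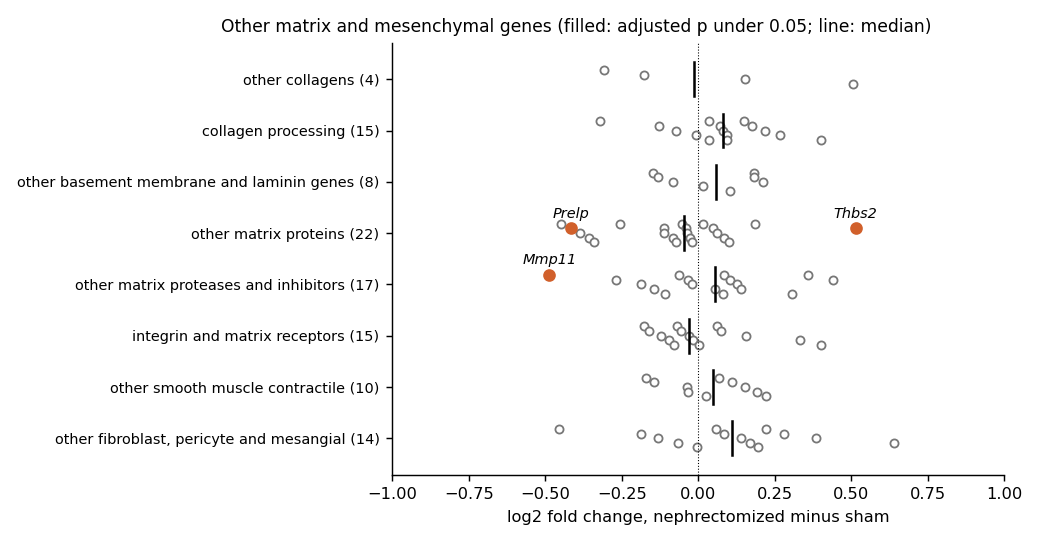
Log2 fold change of the measured genes of 8 further matrix and mesenchymal lists (circles, number of genes in parentheses), 4 nephrectomized against 4 sham rats. Filled circles passed an adjusted p of 0.05, and the black line is the median of the list. Mmp11 and Prelp lie below 0 and Thbs2 above it, and the medians lie between -0.05 and 0.11.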

How the data were processed

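Total RNA of 8 kidneys was labelled with Cy3 and hybridised to 1-colour Agilent arrays of design 014879, per the file headers, 1 array per rat. The authors extracted spot intensity with Agilent Feature Extraction 10.5.1.1 (protocol GE1_105_Dec08), per the file headers. The deposited intensity on a linear scale is background-subtracted and detrended within each array, not between arrays. The authors also deposited log2 values per probe. Compared with the scanner files these fitted log2 intensities scaled to the 75th percentile of an array and then to the median of a probe (r = 0.99998 across 30409 probes), and they served as an alternative.

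From the intensities, log2 values were averaged over a probe's spots without outlier flags, and each array's 75th percentile over gene probes was subtracted. A probe counted as well above background with a share of at least 0.5 of its spots. A probe was kept where this held in every rat of 1 group or both (23982 of 41012), and the brightest kept probe stood for a gene. Names came from RefSeq accessions matched, without version, to a GRCr8 gene table (18713 probes). Since the array annotation is rn4, per the file headers, the only coordinates given are those of the promoter stretches shown, on GRCr8. The test was the moderated one of limma (version 3.58.1, R version 4.3.3), fitted without covariates by lmFit and eBayes, and its p-values were adjusted by Benjamini-Hochberg across the 19865 genes tested, with calls at 0.05. Normexp correction, an alternative, used the median spot signal in place of the mean. The ratios of 2 genes were chosen after the values were seen and compared by exact permutation over rats, which does not account for that choice.

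Genes with values in every rat were the 3 with the smallest p and the largest and smallest log2 fold change of each group of members, and the called genes of the wider lists. Col4a1 and Mmp9 were added after their values were seen. Pdgfb, the gene of its list with the smallest p, is also given in every rat though it was not called. An item of the wider lists is not reported here, and their counts leave it out. Members and lists were chosen with earlier results of these data known. Alternatives were other scaling, background correction, filters, probe rules, variance models, array weights, thresholds, slide or replicate number as a block, the deposited values, and each rat left out in turn.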

Additional observations from a re-analysis of the deposited data

Results flagged for a closer look

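In groups of 4 rats, a value was looked at again where its gap to the nearest rat exceeded Dixon's 95% limit as a share of the group's range, which chance gives in about 1 of 20 groups. Of 84 groups of values, 4 (4.76%) met this. Prelp was highest in nephrectomized rat 3 (-1.49, the others -1.79 to -1.78). The mean of the matrix enzymes and inhibitors, relative to sham, was highest in sham rat 3 among sham rats (0.13, the others -0.06 to -0.03) and lowest in nephrectomized rat 1 in its group (-0.19, the others 0.09 to 0.11). The mean of the contractile and mesenchymal genes was lowest in sham rat 2 (-0.12, the others 0.03 to 0.05). No single measured member met the limit.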

How the results depend on the processing

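No member was called under any of the 22 alternatives except array weights, where Col4a4 and Dcn were lower (2 members called, 1 of the basement membrane and 1 of the glycoproteins and proteoglycans). That setting called 2520 of all genes. Between 1 and 8 members had an unadjusted p under 0.05. The count of 8 came with array weights (29.6%, against 30.7% of all genes). The count of 1 (3.70%) came within slide 1, without sham rat 2 and without sham rat 4. The shares of all genes there were 8.22%, 14.9% and 15.4%. The smallest adjusted p of a member without any 1 rat was 0.0762 (Dcn, without sham rat 1). The medians of the groups of members moved by less than the SD between rats, except that of glycoproteins and proteoglycans within slide 2 (-0.21). The 714 genes called in all became 282 without the filter on dim probes, 260 at a threshold of 0.01, 0 within slide 1 and 141 within slide 2 (1632 and 2464 at an unadjusted p under 0.05), 802 with slide as a block, and 341 to 720 with each rat left out in turn. Sham rats 2, 3 and 4 and nephrectomized rats 2 and 4 moved that count by over 1.5 times (396, 341, 427, 457 and 342 without each). The cause of these changes in count was not tested. No scaling moved the median of all genes by over 0.1 on the log2 scale. Each scaling aligns the arrays to a common level, so this was largely built in.

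With the replicate number as a block, 296 genes and 0 members were called, and Mmp11 (adjusted p = 0.0577) and Prelp (0.0719) lost their calls. Deviations of same-numbered rats correlated at -0.018 to 0.10, with 2 of 4 pairs above 0.1, and those of differently numbered rats at -0.29 to 0.27. The labels do not say whether the numbers pair the rats, and 4 correlations cannot decide it. Without the filter on dim probes the 3 called genes of the wider lists lost their calls (adjusted p 0.0554 to 0.145), as they did within either slide. A sign change of an uncalled value within 1 SE of 0 was not counted as a change of direction, and no other value changed direction under these alternatives. The log2 fold change of Col4a1 by its second probe alone (-0.07) was not among them. The number of arrays limits what can be seen, and Tnc, Mmp9, Postn and Lum also lie near background.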
